A study of Mus musculus with 9 samples.

Results

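The genes described here are 45 interferon response genes, chosen by symbol from the 24391 gene rows of an RNA-seq count table. All 45 had a row, and 44 were among the 12573 genes with enough counts to be tested. Ifi44 was left out of the test, with 1 to 12 counts per library. The table covers bone marrow cells of C57BL/6 mice, 6 to 8 weeks old, from an AML1-ETO9a model of leukaemia, in which a short form of the AML1-ETO fusion protein drives the disease. The cells had been sorted by surface CD43, a leukocyte sialoglycoprotein, and c-Kit, the stem cell factor receptor of progenitors. The 3 sorted populations, each with 3 libraries, were CD43++ckit+, CD43+ckit- and CD43-ckit-. All 3 came from leukaemic marrow, and healthy marrow was not analysed here. The labels do not say whether separate mice gave the 3 libraries of a population, so the p-values rest on a spread between libraries that may be technical.

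Interferons are secreted proteins that warn cells of viral infection. Type I interferons bind a receptor of the chains IFNAR1 and IFNAR2, whose kinases JAK1 and TYK2 phosphorylate STAT proteins. Together with IRF9 these form a complex that binds the interferon-stimulated response element (ISRE) in promoters, while STAT pairs formed after interferon gamma bind the GAS element. The genes so induced sense foreign nucleic acid, block translation, degrade RNA and modify proteins with ISG15. In bone marrow the same pathway acts on stem and progenitor cells as well as on immune cells.

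The c-Kit gene Kit averaged 164.2 ± 15.9 CPM in CD43++ckit+ cells, 15.8 ± 7.01 in CD43+ckit- cells and 34.1 ± 13.2 in CD43-ckit- cells (SD, n = 3). CPM are counts scaled to a common library size, with factors from the trimmed mean of M values (TMM). Spn, which encodes CD43, had means of 502 ± 63.7, 194.2 ± 50.3 and 142.3 ± 61.2 CPM, in that order of populations. The test did not call Spn between CD43+ckit- and CD43-ckit- cells (log2 difference of 0.45 ± 0.33 SE, adjusted p of 0.269). It called Kit lower in CD43+ckit- cells than in CD43-ckit- cells (log2 difference of -1.11), though their libraries overlapped. Libraries held 17966197 to 31781746 counts, and TMM factors ran from 0.589 to 1.41.

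The summed level of the interferon response genes was lowest in CD43++ckit+ cells and highest in CD43-ckit- cells. Summed over the 45 genes, the level was 1717 to 2153 CPM in the CD43++ckit+ libraries, 5865 to 7011 in CD43+ckit- cells and 12933 to 21539 in CD43-ckit- cells. The ranges of these sums did not overlap, and Isg15 and Ifi27l2a alone had means of 3101 ± 709.3 and 3000.1 ± 691.7 CPM in CD43-ckit- cells. The median over the 45 genes did overlap between CD43+ckit- and CD43-ckit- libraries, at log2 CPM of 6.42 to 6.71 and 6.43 to 7.28, and was 4.86 to 5.27 in CD43++ckit+ libraries. As a share of all counts, which needs no scaling factor, the 45 genes took 0.216% to 0.303%, 0.668% to 0.739% and 1.00% to 1.27%. Isg15 and Ifi27l2a were the most abundant per exon length in CD43-ckit- cells, at 4100 and 6480 CPM per kb of exon. Isg20 followed at 398 CPM per kb, then Ifit1 at 239.

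**Figure D1:**
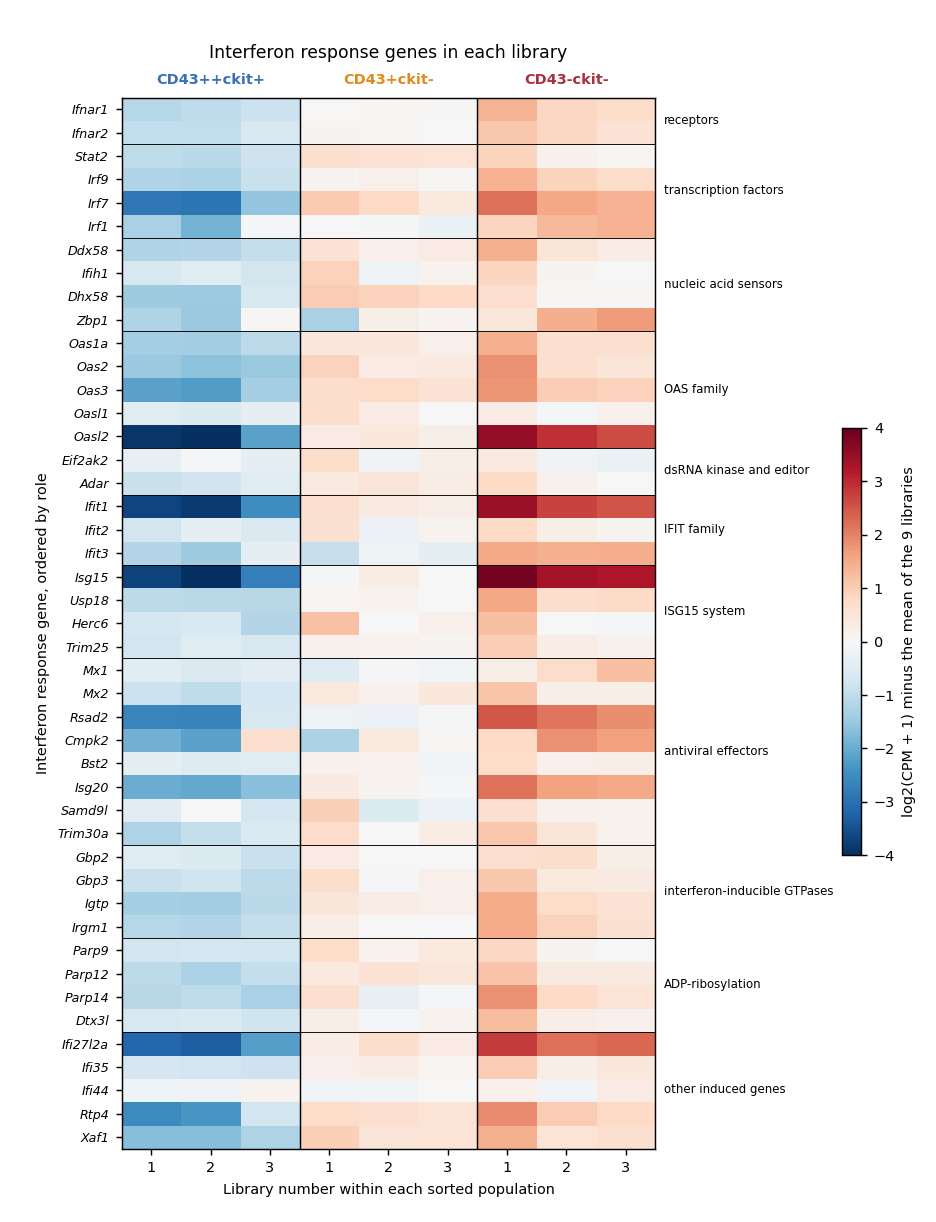
Level of the 45 interferon response genes in the 9 libraries, ordered by role. Colour gives log2(CPM + 1) minus the gene's mean over the 9 libraries, with colours ending at 4 in either direction. Blue fills most of the CD43++ckit+ columns and red most of the CD43-ckit- columns. In library 3 of CD43++ckit+, Cmpk2, Ifi44 and Zbp1 lie above their own mean.

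Between CD43++ckit+ and CD43-ckit- cells, 41 of the 45 genes were lower in CD43++ckit+ cells and none was higher, by edgeR's quasi-likelihood test at an adjusted p under 0.05. Over all genes tested, 27.7% were lower and 39.7% higher in that comparison. The median log2 difference of the 44 tested members was -2.11, against 0.19 for all genes tested. Calls at 4-fold or more numbered 23 of 45, where 12.9% of all genes passed that limit. At 16-fold or more there were 6 (2.55% of all genes): Isg15, Ifit1, Oasl2, Ifi27l2a, Rsad2 and Irf7. The 3 CD43++ckit+ libraries lay below all 3 CD43-ckit- libraries for 43 genes, an order that 30.5% of all genes showed.

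Between CD43++ckit+ and CD43+ckit- cells, 36 of the 45 genes were lower in CD43++ckit+ cells and none was higher. The shares over all genes were 20.1% lower and 19.7% higher. The members' median log2 difference was -1.27, against 0.013 for all genes. Libraries did not overlap for 37 genes, all with CD43++ckit+ cells lower (28.5% of all genes). Calls of 4-fold or more numbered 12, against 3.02% of all genes.

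Between CD43+ckit- and CD43-ckit- cells, 17 of the 45 genes were lower in CD43+ckit- cells, none was higher and 27 of those tested were not called. Over all genes 20.9% were lower and 31% higher. The members' median log2 difference was -0.58, against 0.13 for all genes. Libraries did not overlap for 22 genes with CD43+ckit- cells lower (28.2% of all genes) and for 1, Dhx58, with CD43+ckit- cells higher (36.1%). Calls of 4-fold or more numbered 5 of 45 (7.21% of all genes), and none reached 16-fold (0.764%). Same-numbered libraries of these 2 populations deviated together (correlations of 0.303 to 0.525). Libraries 2 and 3 did so across numbers as well (0.343 and 0.349), and the labels do not say what a number marks. With the replicate number as a block 29 members were called lower and 1, Dhx58, higher, against 32.8% lower and 34.5% higher over all genes. The 12 genes called lower with the block and not in the test above were Irf7, Ddx58, Zbp1, Oas2, Oas3, Cmpk2, Bst2, Gbp2, Gbp3, Dtx3l, Ifi35 and Rtp4. The replicate block named here and below was fitted to the 2 populations compared. Its p-values rest on a pairing that was taken from these same data. A block fitted over all 9 libraries added no member call in this comparison and ended that of Oas1a (adjusted p = 0.0548). Without library 1 of CD43-ckit- cells the members' median was -0.27. The members' count and median in this comparison also depended on the scaling: with library totals in place of TMM, 6 were lower, 8 higher and the median was 0.12, where 9.47% of all genes were lower and 54.6% higher.

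The scaling alternative with library totals moved the median of all genes to 0.28 between CD43++ckit+ and CD43+ckit- cells, to 1.11 between CD43++ckit+ and CD43-ckit- cells, and to 0.78 between CD43+ckit- and CD43-ckit- cells. Relative to that median, the members' median was -1.28 in the first of these comparisons with either scaling and -2.30 in the next with either. In the last it was -0.71 with TMM and -0.66 with library totals. Library totals ended 3 of the 36 calls between CD43++ckit+ and CD43+ckit- cells (Ifit2, Bst2 and Dtx3l). They ended 13 of the 41 between CD43++ckit+ and CD43-ckit- cells, those of Ifih1, Dhx58, Zbp1, Oasl1, Adar, Ifit2, Herc6, Trim25, Bst2, Trim30a, Gbp2, Parp9 and Dtx3l. Of the 17 calls between CD43+ckit- and CD43-ckit- cells 11 ended: Ifnar1, Ifnar2, Irf9, Irf1, Oas1a, Usp18, Mx1, Rsad2, Igtp, Irgm1 and Parp14. Directions and calls below are on the TMM scale.

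For 37 of the 45 genes CD43+ckit- cells were intermediate in mean level, as they were for 56.7% of all genes. They had the highest mean for Stat2, Dhx58, Oasl1, Eif2ak2, Adar, Herc6 and Parp9, and the lowest for Ifi44. A joint test over the 3 populations called 40 members, against 74.8% of all genes. Genes lower in CD43++ckit+ cells than in CD43+ckit- cells and again lower in CD43+ckit- cells than in CD43-ckit- cells numbered 13 of 45 (7.44% of all genes). These were Ifnar1, Ifnar2, Irf9, Oas1a, Oasl2, Ifit1, Isg15, Usp18, Isg20, Igtp, Irgm1, Parp14 and Ifi27l2a. For 23 genes only the difference between CD43++ckit+ and CD43+ckit- cells was called, and for 4 (Irf1, Ifit3, Mx1 and Rsad2) only that between CD43+ckit- and CD43-ckit- cells. A call in one and not in the other does not show that the 2 differences are unequal, which was not tested. The difference between CD43++ckit+ and CD43+ckit- cells was the larger of the 2 for 38 genes. The shares of all genes for the counts of 23, 4 and 38 were not computed.

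**Figure D2:**
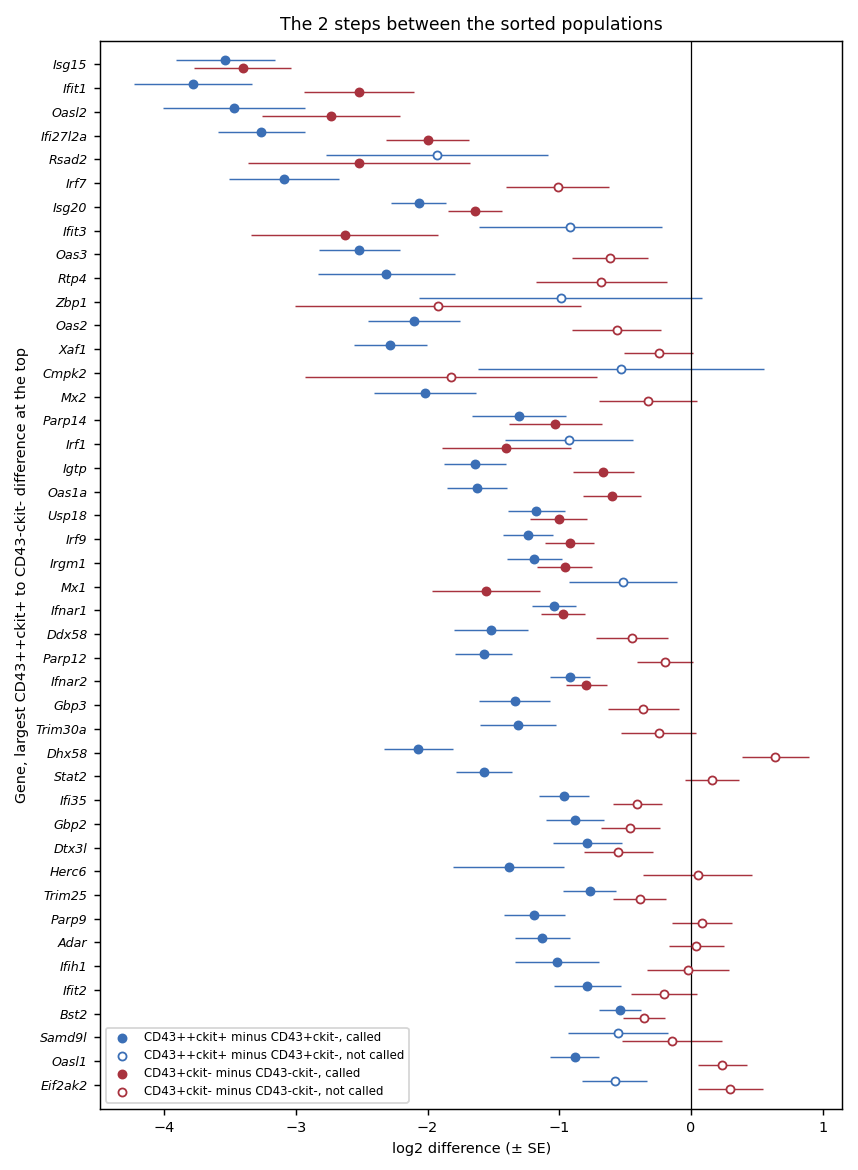
Log2 difference (± SE) of each tested interferon response gene between CD43++ckit+ and CD43+ckit- (blue) and between CD43+ckit- and CD43-ckit- (red). Filled points passed an adjusted p of 0.05 and open points did not. All 44 blue points lie below 0, and 7 red points lie above it.

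Promoter sequences are shown for 5 genes with the largest differences between CD43++ckit+ and CD43-ckit- cells among those that hold the ISRE core, and for Ifnar1 as a receptor gene. RefSeq promoter windows of GRCm38.p6, from 250 bases before to 50 after the annotated start, were matched by symbol for 35 of the 45 genes. The ISRE core was searched as GAAANNGAA on both strands, read as TTCNNTTTC on the other strand. Each run below is the 160 bases just before the annotated start, on the gene's own strand, 5′ to 3′, with ISRE cores in capitals. The windows lie at chr4:156200819-156200978 on the minus strand (Isg15), chr19:34640729-34640888 on the plus strand (Ifit1), chr12:26456453-26456612 on the minus strand (Rsad2), chr19:34583369-34583528 on the plus strand (Ifit3), chr5:120777660-120777819 on the minus strand (Oas3) and chr16:91485055-91485214 on the plus strand (Ifnar1).
Isg15: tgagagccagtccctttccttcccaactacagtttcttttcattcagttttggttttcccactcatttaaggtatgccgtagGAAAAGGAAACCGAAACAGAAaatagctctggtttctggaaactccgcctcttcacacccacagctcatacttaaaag
Ifit1: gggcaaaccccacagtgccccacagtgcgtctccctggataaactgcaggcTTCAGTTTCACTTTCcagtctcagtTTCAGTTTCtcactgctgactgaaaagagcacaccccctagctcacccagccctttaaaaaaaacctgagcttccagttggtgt
Rsad2: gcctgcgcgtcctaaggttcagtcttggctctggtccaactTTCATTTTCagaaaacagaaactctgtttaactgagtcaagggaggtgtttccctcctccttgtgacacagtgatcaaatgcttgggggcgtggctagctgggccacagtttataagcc
Ifit3: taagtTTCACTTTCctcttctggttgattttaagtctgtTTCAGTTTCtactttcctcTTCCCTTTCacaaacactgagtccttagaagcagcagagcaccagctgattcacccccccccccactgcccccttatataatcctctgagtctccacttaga
Oas3: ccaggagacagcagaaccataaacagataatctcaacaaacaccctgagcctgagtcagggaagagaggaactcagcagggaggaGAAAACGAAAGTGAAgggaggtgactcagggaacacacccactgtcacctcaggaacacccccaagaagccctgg
Ifnar1: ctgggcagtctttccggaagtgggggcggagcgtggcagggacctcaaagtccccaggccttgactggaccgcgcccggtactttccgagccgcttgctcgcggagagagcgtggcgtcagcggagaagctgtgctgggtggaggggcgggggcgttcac

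Isg15 holds 3 cores in the gene's direction that overlap end to end, beginning 78, 72 and 66 bases before the start. Oas3 holds 2 such cores, beginning 75 and 69 bases before it. Ifit1 and Ifit3 hold 3 each and Rsad2 holds 1, all on the other strand. The Ifnar1 run holds no ISRE core, and its GAS core, TTCNNNGAA, begins 5 bases before the start and runs past the printed end. Of the 35 member genes with a window, 20 (57.1%) held the ISRE core, against 9.7% of the 26990 other genes in the table. Among tested members, the 19 with the core had a median log2 difference of -1.7 between CD43++ckit+ and CD43-ckit- cells. The 15 without it had -2.01, among them Oasl2 (-6.20) and Irf7 (-4.10). The medians with and without it were -1.31 and -1.04 between CD43++ckit+ and CD43+ckit- cells. Between CD43+ckit- and CD43-ckit- cells they were -0.45 and -0.79. The GAS core was present in 11 (31.4%), against 9.53%. A match of letters is a description and does not show that a factor binds there.

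Both chains of the type I receptor were lower in CD43++ckit+ cells than in the other populations. Ifnar1 had 42.3, 46.8 and 52.0 CPM in the CD43++ckit+ libraries, 93.6, 99.1 and 97.4 in CD43+ckit- cells, and 242, 168.1 and 158.6 in CD43-ckit- cells. No population overlapped another. Its log2 difference was -1.04 ± 0.17 (SE) between CD43++ckit+ and CD43+ckit- cells (adjusted p = 0.00168) and -0.97 ± 0.17 between CD43+ckit- and CD43-ckit- cells (adjusted p = 0.00172). Ifnar2 had 48.3, 48.3 and 60.4 CPM in CD43++ckit+ cells, 103.6, 98.2 and 94.9 in CD43+ckit- cells, and 202.7, 169.6 and 141.8 in CD43-ckit- cells. It too was separated in all 3 populations, with log2 differences of -0.92 ± 0.16 and -0.79 ± 0.15 in the same comparisons. With library totals the calls between CD43+ckit- and CD43-ckit- cells were lost for both chains.

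Of the 4 transcription factors, all were lower in CD43++ckit+ cells than in CD43-ckit- cells, and 3 were lower than in CD43+ckit- cells. Irf7, the factor that amplifies interferon production, had 33.0, 31.2 and 81.3 CPM in CD43++ckit+ cells, 500.6, 420.9 and 317.6 in CD43+ckit- cells, and 1135, 717.5 and 646.4 in CD43-ckit- cells. Its groups did not overlap, and library 3 was the highest of CD43++ckit+ cells. Irf7 was 8.52-fold lower in CD43++ckit+ cells than in CD43+ckit- cells (log2 -3.09 ± 0.42 SE, adjusted p = 0.000788) and 17.2-fold lower than in CD43-ckit- cells. These log2 differences were -3.69 and -4.69 without library 3 of CD43++ckit+ cells. Between CD43+ckit- and CD43-ckit- cells the log2 difference was -1.01 ± 0.39 (adjusted p = 0.0536), which passed with the replicate block (adjusted p = 2.05e-06).

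Irf9, the DNA-binding partner of STAT proteins, had 96.7, 91.1 and 118.9 CPM in CD43++ckit+ cells, 239.997, 253.8 and 228.9 in CD43+ckit- cells, and 586.7, 408.5 and 373.4 in CD43-ckit- cells. The populations were separate and each difference passed, with log2 values of -1.24 ± 0.19 and -0.92 ± 0.19 for the successive comparisons. The second was -0.24 with library totals (adjusted p = 0.175). Stat2 had a log2 difference of -1.57 ± 0.21 between CD43++ckit+ and CD43+ckit- cells. Its CD43+ckit- and CD43-ckit- means were 122.5 ± 4.11 and 109.6 ± 36.7 CPM and were not distinguished by the test (adjusted p = 0.522). Irf1, an early factor of the gamma interferon response, was at low level, with 1.72 to 8.46 CPM in CD43++ckit+ cells and 17.3 to 25.7 in CD43-ckit- cells (log2 -2.33 ± 0.50, and -3.19 without library 3 of CD43++ckit+ cells). That omission also brought a call against CD43+ckit- cells (log2 -1.80, adjusted p = 0.00179). The Irf1 call between CD43+ckit- and CD43-ckit- cells was lost without any 1 of the 6 libraries of those populations.

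**Figure D3:**
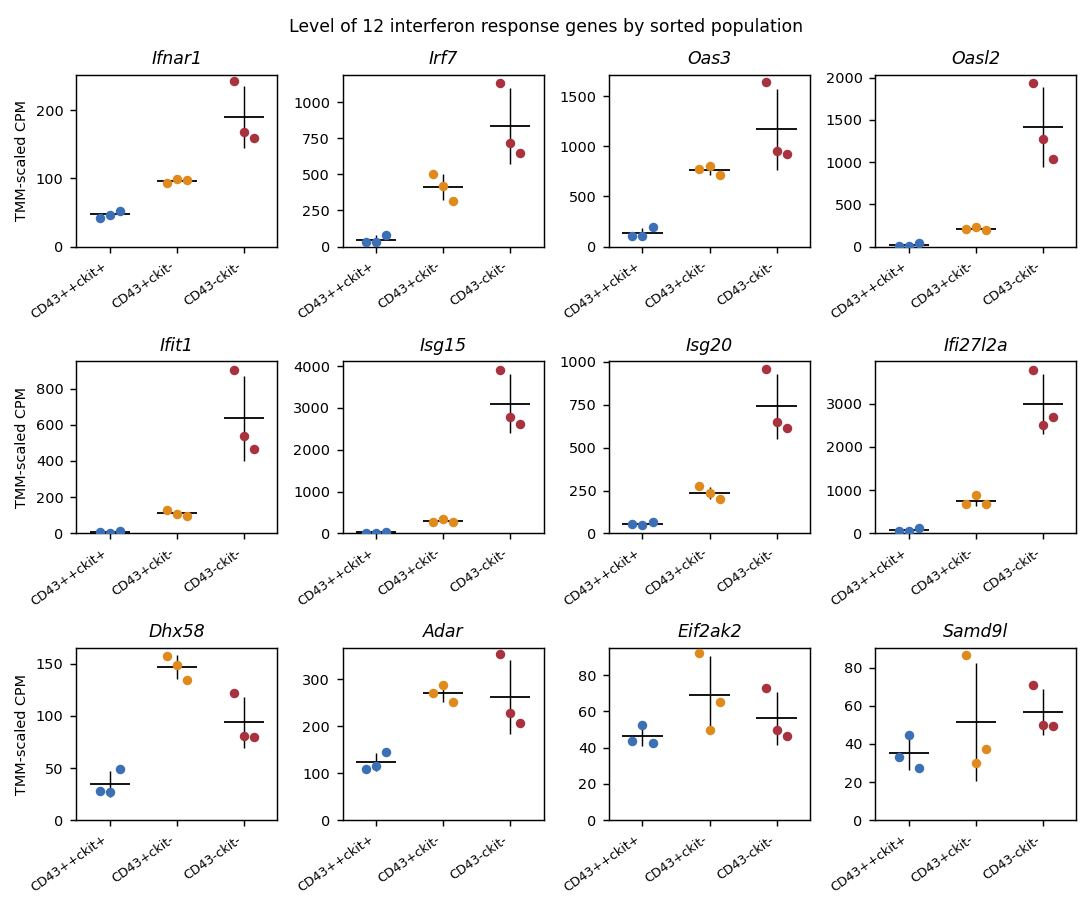
TMM-scaled CPM of 12 interferon response genes in each library (points), with the mean (line) and SD (bar) of 3 libraries per population. Axes start at 0. The 3 libraries of CD43-ckit- exceed those of CD43++ckit+ for each gene shown except Eif2ak2, and Dhx58 is highest in CD43+ckit-.

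All 4 nucleic acid sensors were lower in CD43++ckit+ cells than in CD43-ckit- cells, and 3 were lower than in CD43+ckit- cells. With library totals 3 of the calls against CD43-ckit- cells ended, those of Dhx58 (log2 -0.46, adjusted p = 0.12), Ifih1 (-0.082, adjusted p = 0.782) and Zbp1 (-1.99, adjusted p = 0.146). Ddx58, which encodes the viral RNA sensor RIG-I, had 24.1, 24.4 and 28.8 CPM in CD43++ckit+ cells, 85.3, 65.3 and 71.1 in CD43+ckit- cells, and 153.4, 79.5 and 69.4 in CD43-ckit- cells. CD43++ckit+ cells were separate from the others, while CD43+ckit- and CD43-ckit- cells overlapped. The log2 difference from CD43+ckit- cells was -1.52 ± 0.28 (adjusted p = 0.00287).

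Dhx58, which encodes LGP2, a regulator of RIG-I and MDA5, had 28.1, 27.5 and 49.1 CPM in CD43++ckit+ cells, 157.2, 148.4 and 134.6 in CD43+ckit- cells, and 122.4, 80.4 and 79.5 in CD43-ckit- cells. Its 3 populations were separate, with CD43+ckit- cells on top. It was 4.20-fold lower in CD43++ckit+ cells than in CD43+ckit- cells (log2 -2.07 ± 0.26, adjusted p = 0.000617). Its difference between CD43+ckit- and CD43-ckit- cells was 0.64 ± 0.25 (adjusted p = 0.0586), and 0.61 with the replicate block (adjusted p = 0.00109). Ifih1, which encodes the RNA sensor MDA5, was lower in CD43++ckit+ cells than in CD43+ckit- cells by a log2 of -1.02 ± 0.32 (adjusted p = 0.0303). Leaving out any 1 of the CD43++ckit+ libraries, or library 1 of CD43+ckit- cells, ended that call. Between CD43++ckit+ and CD43-ckit- cells the Ifih1 call (adjusted p = 0.0166) was lost without library 1 of CD43++ckit+ cells or library 1 of CD43-ckit- cells.

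Zbp1, a sensor of Z-form nucleic acid, was near the limit of detection, with 0.333, 0.082 and 2.12 CPM in CD43++ckit+ cells, 0.235, 2.55 and 2.31 in CD43+ckit- cells, and 3.14, 7.33 and 8.83 in CD43-ckit- cells. Library 3 stood apart within CD43++ckit+ cells, and library 1 was the lowest of each other population. Its call between CD43++ckit+ and CD43-ckit- cells (log2 -2.91 ± 1.12, adjusted p = 0.045) was lost under 11 of 19 alternatives, 7 of which left out 1 library. Leaving out library 3 of CD43++ckit+ cells kept it, at -4.90 (adjusted p = 0.00258), and brought a call against CD43+ckit- cells (-2.99, adjusted p = 0.0378). The Zbp1 difference between CD43+ckit- and CD43-ckit- cells passed with the replicate block (-2.18, adjusted p = 2.18e-12).

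All 5 genes of the OAS family were lower in CD43++ckit+ cells than in either other population, except that Oasl1 had a log2 difference from CD43-ckit- cells of 0.28 with library totals. OAS enzymes make the oligoadenylate that activates RNase L. Oas3 had 107.3, 102.3 and 191 CPM in CD43++ckit+ cells, 776, 806.6 and 711.2 in CD43+ckit- cells, and 1639, 954.6 and 920.7 in CD43-ckit- cells. CD43++ckit+ cells were well below the others, by 5.73-fold against CD43+ckit- cells (log2 -2.52 ± 0.31, adjusted p = 0.000538). The CD43+ckit- libraries lay below the CD43-ckit- libraries, with a log2 difference of -0.62 ± 0.29 (adjusted p = 0.0999, and 0.00833 with the replicate block).

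Oasl2, an OAS-like gene, had the widest range of the family. It had 10.5, 9.49 and 37.6 CPM in CD43++ckit+ cells, 212.3, 228 and 198.9 in CD43+ckit- cells, and 1941, 1273 and 1032 in CD43-ckit- cells. Each population was separate, and library 3 of CD43++ckit+ cells was 3.76 times the mean of the other 2. Oasl2 was 11.1-fold lower in CD43++ckit+ cells than in CD43+ckit- cells (log2 -3.47 ± 0.54) and 6.64-fold lower in CD43+ckit- cells than in CD43-ckit- cells (log2 -2.73 ± 0.52). Without that library of CD43++ckit+ cells the first was -4.41. The neighbour of Oasl2 on the chromosome, Oasl1, an OAS-like gene with a restraining role, had log2 differences of -0.88 ± 0.19 and 0.24 ± 0.19 in these comparisons, the second not called. Oas2, the neighbour of Oas3, had -2.10 ± 0.35 and -0.56 ± 0.34, the second passing with the replicate block (adjusted p = 0.0237). Oas1a counts are uncertain, since 42.4% of its exon words of 50 bases occur in no other gene and it shares the most with Oas1g. Its call between CD43+ckit- and CD43-ckit- cells (log2 -0.60 ± 0.22, adjusted p = 0.0481) turned to 0.088 with library totals. Leaving out library 1 or 2 of CD43++ckit+ cells, any 1 of CD43+ckit- cells or library 1 of CD43-ckit- cells ended it.

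Of the 2 genes for proteins that act on duplex RNA, Adar was lower in CD43++ckit+ than in each other population and Eif2ak2 was not called. Eif2ak2, which encodes PKR, a kinase that stops translation on sensing duplex RNA, had 43.8, 52.2 and 42.6 CPM in CD43++ckit+ cells, 92.2, 49.6 and 65.2 in CD43+ckit- cells, and 72.7, 49.6 and 46.2 in CD43-ckit- cells. All 3 populations overlapped and no difference was called (log2 -0.58 ± 0.25, -0.28 ± 0.25 and 0.30 ± 0.25, adjusted p = 0.0917, 0.322 and 0.319). With library totals Eif2ak2 was called higher in CD43++ckit+ cells than in CD43-ckit- cells, by a log2 of 0.66 (adjusted p = 0.0149).

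Adar, which edits adenosine to inosine in duplex RNA, had 109.5, 115.6 and 145.9 CPM in CD43++ckit+ cells, 269.8, 288.5 and 252.2 in CD43+ckit- cells, and 353.3, 227.4 and 206.8 in CD43-ckit- cells. CD43++ckit+ cells were below both other populations, which overlapped each other. The log2 difference was -1.13 ± 0.21 from CD43+ckit- cells (adjusted p = 0.00307) and -1.09 ± 0.21 from CD43-ckit- cells (adjusted p = 0.00155). The Adar difference from CD43-ckit- cells was -0.12 with library totals (adjusted p = 0.512).

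The 3 genes of the IFIT family, whose products bind foreign RNA and block its translation, were lower in CD43++ckit+ cells than in CD43-ckit- cells, and 2 were lower than in CD43+ckit- cells. Ifit1 had 5.43, 4.79 and 13.8 CPM in CD43++ckit+ cells, 127.9, 105.5 and 98.8 in CD43+ckit- cells, and 904.5, 537.1 and 464.1 in CD43-ckit- cells. Every CD43-ckit- library was above every CD43+ckit- library, and these above every CD43++ckit+ library. Ifit1 was 13.8-fold lower in CD43++ckit+ cells than in CD43+ckit- cells (log2 -3.78 ± 0.45, adjusted p = 0.00049) and 79-fold lower than in CD43-ckit- cells (log2 -6.30 ± 0.50, adjusted p = 1.31e-05). Leaving out library 3 of CD43++ckit+ cells moved the log2 differences of Ifit1 to -4.44 and -6.95.

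Ifit2 had 17.9, 23.5 and 20.01 CPM in CD43++ckit+ cells, 46.6, 25.9 and 33.4 in CD43+ckit- cells, and 53.4, 35.5 and 33.1 in CD43-ckit- cells. Its differences were small, with CD43++ckit+ cells lower than CD43-ckit- cells by a log2 of -0.99 ± 0.25 (adjusted p = 0.00721), which was -0.043 with library totals (adjusted p = 0.862). The Ifit2 call against CD43+ckit- cells (log2 -0.79 ± 0.25, adjusted p = 0.0345) was lost without any 1 of the CD43++ckit+ libraries and without library 1 or 3 of CD43+ckit- cells. Ifit3, next to Ifit2, was low, at 0.137 to 1.38 CPM in CD43++ckit+ cells and 7.199 to 7.78 in CD43-ckit- cells (log2 -3.54 ± 0.74, and -4.86 without library 3 of CD43++ckit+ cells). Ifit3 was called against CD43+ckit- cells once that library was left out (log2 -2.24, adjusted p = 0.00891). Of its exon words of 50 bases, 48.8% occur in no other gene, the copy Ifit3b sharing the most, so its level is uncertain.

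The ISG15 system attaches the ubiquitin-like protein ISG15 to other proteins and removes it. Isg15 itself had the largest difference among the 44 tested members between CD43++ckit+ and CD43-ckit- cells and between CD43+ckit- and CD43-ckit- cells. It had 20.3, 14.7 and 40.7 CPM in CD43++ckit+ cells, 267.4, 338 and 273 in CD43+ckit- cells, and 3915, 2770.01 and 2617 in CD43-ckit- cells. No population overlapped another, and the lowest CD43-ckit- library exceeded the highest CD43++ckit+ library many times over. Isg15 was 11.6-fold lower in CD43++ckit+ cells than in CD43+ckit- cells (log2 -3.54 ± 0.37, adjusted p = 0.00039). It was 10.6-fold lower in CD43+ckit- cells than in CD43-ckit- cells (log2 -3.40 ± 0.37, adjusted p = 0.000188), and 123-fold lower in CD43++ckit+ cells than in CD43-ckit- cells.

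Trim25, the ubiquitin ligase that activates RIG-I, had 135.6, 161.9 and 146.1 CPM in CD43++ckit+ cells, 259.3, 252 and 243.8 in CD43+ckit- cells, and 449.2, 281.7 and 258.2 in CD43-ckit- cells. CD43++ckit+ cells were separate from the others, by a log2 of -0.77 ± 0.20 from CD43+ckit- cells (adjusted p = 0.0141, and 0.0606 without library 1 of CD43++ckit+ cells). Usp18, the protease that removes ISG15 and damps receptor signalling, was lower at each step, with means of 27.4 ± 0.60, 61.9 ± 3.83 and 124.1 ± 44.9 CPM. The second step of Usp18, a log2 of -1.003, was -0.31 with library totals (adjusted p = 0.0952). Herc6, the mouse ligase for ISG15, had means of 29.4 ± 5.84, 76.7 ± 36.0 and 74.1 ± 41.0 CPM. The Herc6 call between CD43++ckit+ and CD43+ckit- cells (adjusted p = 0.0279) was lost without any 1 of the CD43++ckit+ libraries or library 1 of CD43+ckit- cells. Its call against CD43-ckit- cells (adjusted p = 0.0195) was lost without library 1 of CD43-ckit- cells.

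The rest of the conjugation pathway was measured in genes outside the 45. Uba7, the activating enzyme for ISG15, had log2 differences of -1.95 ± 0.22 between CD43++ckit+ and CD43+ckit- cells and -0.34 ± 0.22 between CD43+ckit- and CD43-ckit- cells, the second not called. Uba7 was named after its values were seen. Ube2l6, the conjugating enzyme, had 140.3, 118.6 and 165.1 CPM in CD43++ckit+ cells, 657.7, 775 and 600.01 in CD43+ckit- cells, and 3178, 2439 and 2379 in CD43-ckit- cells. The Ube2l6 libraries were separate in each population, with log2 differences of -2.26 ± 0.19 and -1.98 ± 0.19.

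Of the 8 antiviral effectors, 6 were lower in CD43++ckit+ cells than in CD43-ckit- cells and 4 were lower than in CD43+ckit- cells, with the direction of Bst2 against CD43-ckit- cells turning with library totals (log2 0.044). Isg20, an RNA exonuclease, had 52.8, 51.2 and 66.1 CPM in CD43++ckit+ cells, 273.7, 235.9 and 203.3 in CD43+ckit- cells, and 956.9, 648.3 and 616.2 in CD43-ckit- cells. Its populations were separate, at 4.19-fold (log2 -2.07 ± 0.21) and 3.12-fold (log2 -1.64 ± 0.21) per step. Isg20 had the smallest adjusted p of the members between CD43++ckit+ and CD43-ckit- cells (2.71e-06).

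Bst2, the tetherin that holds virus particles at the cell surface, had 77.8, 70.96 and 73.9 CPM in CD43++ckit+ cells, 114.7, 114.2 and 94.4 in CD43+ckit- cells, and 172.4, 117.6 and 124.2 in CD43-ckit- cells. The 3 sets were separate but close, with a log2 difference of -0.54 ± 0.16 between CD43++ckit+ and CD43+ckit- cells (adjusted p = 0.0262). Leaving out library 1 or 2 of either population ended that call.

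Rsad2, which encodes viperin, had 0.384, 0.328 and 4.42 CPM in CD43++ckit+ cells, 6.46, 6.24 and 7.08 in CD43+ckit- cells, and 46.4, 37.0 and 29.9 in CD43-ckit- cells. Library 3 of CD43++ckit+ cells was far above the other 2 of its population, though still below every CD43+ckit- library. Rsad2 was 21.8-fold lower in CD43++ckit+ cells than in CD43-ckit- cells (log2 -4.44 ± 0.92, adjusted p = 0.00282). With library 3 of CD43++ckit+ cells left out this was -6.69, and the Rsad2 difference from CD43+ckit- cells moved from -1.93, not called, to -4.19 (adjusted p = 7.94e-05). The call between CD43+ckit- and CD43-ckit- cells (adjusted p = 0.0353) was lost without any 1 of the 6 libraries of those populations.

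Cmpk2, a mitochondrial nucleotide kinase and the neighbour of Rsad2, had 0.538, 0.328 and 8.08 CPM in CD43++ckit+ cells, 1.45, 6.61 and 4.97 in CD43+ckit- cells, and 9.11, 19.8 and 17.2 in CD43-ckit- cells. Its library 3 of CD43++ckit+ cells was 18.7 times the mean of the other 2, and no difference was called, the smallest adjusted p being 0.0925 for CD43++ckit+ against CD43-ckit- cells. Without that library Cmpk2 was lower in CD43++ckit+ cells than in CD43+ckit- cells (log2 -3.31, adjusted p = 0.00503) and in CD43-ckit- cells (-5.12, adjusted p = 0.0003). Its difference between CD43+ckit- and CD43-ckit- cells was then -1.81 (adjusted p = 0.0144), and -2.01 with the replicate block (adjusted p = 1.34e-16). Samd9l, an interferon-induced restraint on growth and translation, had 33.1, 44.7 and 27.4 CPM in CD43++ckit+ cells, 86.9, 30.0 and 37.5 in CD43+ckit- cells, and 70.9, 50.2 and 49.6 in CD43-ckit- cells. No difference was called for Samd9l, and library 1 of CD43+ckit- cells was 2.57 times the mean of the other 2. Under 6 of 19 alternatives Samd9l was called lower in CD43++ckit+ cells than in CD43-ckit- cells, among them DESeq2 (log2 -0.91, adjusted p = 0.0248) and leaving out that library (-0.68, adjusted p = 0.0241).

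The GTPases Mx1 and Mx2 were at low level, with means of 3.21 ± 1.40 and 3.64 ± 1.74 CPM in CD43-ckit- cells. C57BL/6 mice carry a defective Mx1. Both were lower in CD43++ckit+ cells than in CD43-ckit- cells (log2 -2.07 ± 0.42 and -2.35 ± 0.39). The Mx1 call between CD43+ckit- and CD43-ckit- cells (adjusted p = 0.0123) was lost without library 3 of CD43-ckit- cells (adjusted p = 0.0513). Trim30a, a restraint on inflammatory signalling, had log2 differences of -1.31 ± 0.29 from CD43+ckit- cells and -1.56 ± 0.29 from CD43-ckit- cells.

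All 4 interferon-inducible GTPases that act on the membranes of intracellular microbes were lower in CD43++ckit+ cells than in each other population. Irgm1 had 79.0, 78.0 and 89.9 CPM in CD43++ckit+ cells, 210.04, 174.4 and 178.1 in CD43+ckit- cells, and 491.3, 333.2 and 269.1 in CD43-ckit- cells. Igtp had 21.0, 20.2 and 25.6 CPM in CD43++ckit+ cells, 77.2, 67.1 and 63.4 in CD43+ckit- cells, and 154.9, 92.2 and 82.1 in CD43-ckit- cells. Both genes had 3 separate sets of libraries. The log2 differences of Irgm1 were -1.19 ± 0.21 between CD43++ckit+ and CD43+ckit- cells and -0.96 ± 0.21 between CD43+ckit- and CD43-ckit- cells, the second falling to -0.27 with library totals (adjusted p = 0.135). Those of Igtp were -1.64 ± 0.24 and -0.66 ± 0.23, the second turning to 0.026 with library totals. The Igtp call between CD43+ckit- and CD43-ckit- cells (adjusted p = 0.0376) was lost without library 1 of CD43++ckit+ cells, any 1 of CD43+ckit- cells or library 1 of CD43-ckit- cells. Gbp2 and Gbp3, guanylate-binding proteins, were low, with CD43-ckit- means of 12.5 ± 2.34 and 20.7 ± 6.53 CPM.

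The 4 genes of the ADP-ribosylation group were lower in CD43++ckit+ cells than in each other population. With library totals the calls against CD43-ckit- cells ended for Parp9 (log2 -0.15, adjusted p = 0.445) and Dtx3l (-0.37, adjusted p = 0.102), as did that of Dtx3l against CD43+ckit- cells (-0.52, adjusted p = 0.0502). Parp14, an ADP-ribosyltransferase, had 66.2, 71.0 and 58.6 CPM in CD43++ckit+ cells, 227.3, 115.9 and 140.5 in CD43+ckit- cells, and 522.5, 251.5 and 214.3 in CD43-ckit- cells. Dtx3l, the ubiquitin ligase that pairs with PARP9, had 59.3, 61.0 and 53.1 CPM in CD43++ckit+ cells, 107.7, 90.1 and 101.3 in CD43+ckit- cells, and 222.6, 111.5 and 103.9 in CD43-ckit- cells. Library 1 of CD43-ckit- cells was well above the other 2 for both, and for both CD43+ckit- and CD43-ckit- cells overlapped.

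Parp14 had a log2 difference of -2.34 ± 0.37 between CD43++ckit+ and CD43-ckit- cells (adjusted p = 0.0005), and Dtx3l one of -1.34 ± 0.27 (adjusted p = 0.00189). Against CD43+ckit- cells the Parp14 call (adjusted p = 0.0175) was lost without library 1 of either population. The Dtx3l call in that comparison (adjusted p = 0.0414) was lost without any 1 of the 6 libraries. Between CD43+ckit- and CD43-ckit- cells Parp14 was called (adjusted p = 0.0361), and the call was lost without library 1 of CD43++ckit+ cells, library 2 or 3 of CD43+ckit- cells or library 1 of CD43-ckit- cells. Parp9 and Parp12 had log2 differences from CD43+ckit- cells of -1.19 ± 0.23 and -1.57 ± 0.22. Parp14, Dtx3l and Parp9 lie next to each other on the chromosome.

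Among the other induced genes, Ifi27l2a, a small membrane protein of the IFI27 family, had 60.4, 55.0 and 119.1 CPM in CD43++ckit+ cells, 675, 892.4 and 683.7 in CD43+ckit- cells, and 3792, 2517 and 2691 in CD43-ckit- cells. Its 3 populations were separate by wide margins. Ifi27l2a was 9.60-fold lower in CD43++ckit+ cells than in CD43+ckit- cells (log2 -3.26 ± 0.33, adjusted p = 0.000342) and 38.4-fold lower than in CD43-ckit- cells (log2 -5.26 ± 0.36, adjusted p = 5.41e-06).

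Ifi35, a leucine zipper protein, had 58.4, 53.8 and 51.3 CPM in CD43++ckit+ cells, 107.8, 114.6 and 96.9 in CD43+ckit- cells, and 187, 111.2 and 124.9 in CD43-ckit- cells. CD43++ckit+ cells were separate from both, by a log2 of -0.97 ± 0.19 and -1.37 ± 0.19. Rtp4, a regulator of the interferon response, and Xaf1, a partner of the apoptosis inhibitor XIAP, were lower in CD43++ckit+ cells than in CD43+ckit- cells by a log2 of -2.31 ± 0.52 and -2.28 ± 0.28. The Rtp4 difference was -3.19 without library 3 of CD43++ckit+ cells. Neither was called between CD43+ckit- and CD43-ckit- cells, where Rtp4 passed with the replicate block (log2 -0.66, adjusted p = 0.000351). Ifi44 had 0.026, 0.055 and 0.268 CPM in CD43++ckit+ cells, 0.067, 0.067 and 0.128 in CD43+ckit- cells, and 0.314, 0.065 and 0.431 in CD43-ckit- cells, at which no difference was detectable.

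Transcripts of the interferons themselves were at or near 0 counts. None of 21 interferon gene rows passed the filter on low counts, and 13 of them were at 0 in every library. Ifnb1 was at 0 throughout, which allows at most 0.094 to 0.167 CPM of the library totals (3 counts, counting error only). Ifng, which encodes interferon gamma, had the most, with 17 counts over the 9 libraries and at most 5 in one. The 21 genes together had 1 to 8 counts per library.

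The other receptor genes did not all follow Ifnar1 and Ifnar2. Of 4 tested, 2 were lower in CD43++ckit+ cells than in CD43-ckit- cells and 1 was higher, with a median log2 difference of -1.94. For this list and those that follow, the shares over all genes in that comparison were 27.7% lower and 39.7% higher. Ifngr2, a chain of the interferon gamma receptor, had 25.2, 23.9 and 28.1 CPM in CD43++ckit+ cells, 45.5, 65.5 and 57.3 in CD43+ckit- cells, and 266.1, 214.2 and 194.6 in CD43-ckit- cells (log2 -1.12 ± 0.17 and -2.003 ± 0.17). Il10rb, which the lambda interferon receptor shares with interleukin receptors, had log2 differences of -0.95 ± 0.18 and -1.06 ± 0.18. Ifnlr1, the specific lambda chain, was higher in CD43++ckit+ cells than in CD43-ckit- cells (0.65 ± 0.20, adjusted p = 0.0159).

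Of 13 genes for kinases, STATs and brakes of signalling, 6 were lower and 2 higher in CD43++ckit+ cells than in CD43-ckit- cells, with a median of -0.54. Cish, a cytokine-induced inhibitor, was lower at each step (-1.17 ± 0.33 and -2.46 ± 0.35). The kinase gene Tyk2 was higher in CD43++ckit+ cells and in CD43+ckit- cells than in CD43-ckit- cells (0.56 ± 0.14 and 0.88 ± 0.14). Ptpn2, a phosphatase that acts on JAK and STAT proteins, was higher in CD43++ckit+ cells than in CD43+ckit- and CD43-ckit- cells (0.63 ± 0.21 and 0.55 ± 0.21). Socs1, the feedback inhibitor of JAK kinases, was higher in CD43++ckit+ cells than in CD43+ckit- cells (1.97 ± 0.50, adjusted p = 0.0131). For both Socs1 and Ptpn2 the libraries of CD43++ckit+ and CD43+ckit- cells overlapped.

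Among 6 other interferon regulatory factors tested, 4 were lower and 1 higher (log2 2.17) in CD43++ckit+ cells than in CD43-ckit- cells. Irf2 (-1.23 ± 0.17) and Irf4 (-3.56 ± 0.82) were among those lower. Irf3, the factor activated by nucleic acid sensors, was higher in CD43+ckit- cells than in CD43-ckit- cells (0.39 ± 0.12). Of 17 sensor and adaptor genes tested, 10 were lower and 2 higher in CD43++ckit+ cells than in CD43-ckit- cells, with a median of -1.29. The nuclease gene Trex1 (-2.10 ± 0.14) and Samhd1 (-1.19 ± 0.14), which degrades deoxynucleotides, were lower. Mb21d1, which encodes the DNA sensor cGAS, and Traf3, a signalling adaptor, were higher (1.59 ± 0.24 and 1.19 ± 0.18). Mb21d1 was also higher in CD43+ckit- cells than in CD43-ckit- cells (0.92 ± 0.24).

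Of 59 further interferon-stimulated genes tested, 30 were lower and 0 higher in CD43++ckit+ cells than in CD43+ckit- cells, and 39 were lower and 3 higher than in CD43-ckit- cells. The shares over all genes were 20.1% and 19.7%, and 27.7% and 39.7%. Their median log2 differences were -0.84 and -1.43. Between CD43+ckit- and CD43-ckit- cells 13 were lower and 8 higher, with a median of -0.42, against 20.9% and 31% over all genes. Oas1c and Slfn2, which restrains lymphocyte proliferation, were lower in CD43++ckit+ cells than in CD43-ckit- cells by a log2 of -2.59 ± 0.14 and -2.86 ± 0.20. The 3 that were higher were Parp11 (1.18 ± 0.22), Pnpt1 (1.28 ± 0.26) and Mitd1 (0.71 ± 0.19). These 3 were also higher in CD43+ckit- cells than in CD43-ckit- cells, as were Lgals3bp, Sp110, Pml, Hsh2d and Nlrc5 (0.52 to 0.98). Pml, the organiser of nuclear bodies, had 173, 179.4 and 192.1 CPM in CD43++ckit+ cells, 355, 332.6 and 288.8 in CD43+ckit- cells, and 201.5, 140.5 and 154.5 in CD43-ckit- cells, so that CD43+ckit- cells stood above both others.

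Markers of other cell types differed between the populations as well. Summed over 18 rows, erythroid markers had 3230 to 4116 CPM in CD43++ckit+ cells, 20862 to 24789 in CD43+ckit- cells and 41061 to 66178 in CD43-ckit- cells. The sum of the interferon response genes had the same order. Of 15 erythroid markers tested, 15 were lower in CD43++ckit+ cells than in CD43+ckit- cells and 14 lower than in CD43-ckit- cells. Between CD43+ckit- and CD43-ckit- cells 3 of them were lower, 1 was higher and 11 were not called, with a median log2 difference of -0.32. Hbb-bs and Hbb-bt were at 0 in every library, and Hba-a1 had at most 4 counts. Macrophage markers (18 rows) had 26.2 to 167.2, 60.3 to 144.8 and 1262 to 1712 CPM, of which Lgmn alone had 867 to 1153 in CD43-ckit- cells and C1qa 8.68 to 22.9. Of 16 macrophage markers tested, 2 were higher and 1 lower in CD43++ckit+ cells than in CD43+ckit- cells, with a median log2 difference of 1.10. Against CD43-ckit- cells 3 were lower in CD43++ckit+ cells and 13 were lower in CD43+ckit- cells. The 11 plasmacytoid dendritic cell markers other than Bst2 had 5.85 to 44.1, 36.8 to 56.2 and 134.1 to 144.3 CPM. B-lineage markers (12 rows) had 4.92 to 32.2, 18.3 to 57.2 and 111.9 to 292.9 CPM. Monocyte markers (10 rows) had 13.5 to 151.5, 25.3 to 104.9 and 151.3 to 447.4 CPM, and T and NK markers (13 rows) 5.06 to 27.8, 33.3 to 39.1 and 32.1 to 60.5. The part of these cells in the interferon response differences was not tested. In sorted bulk RNA, fewer cells of a type and less RNA per cell cannot be told apart.

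**Figure D4:**
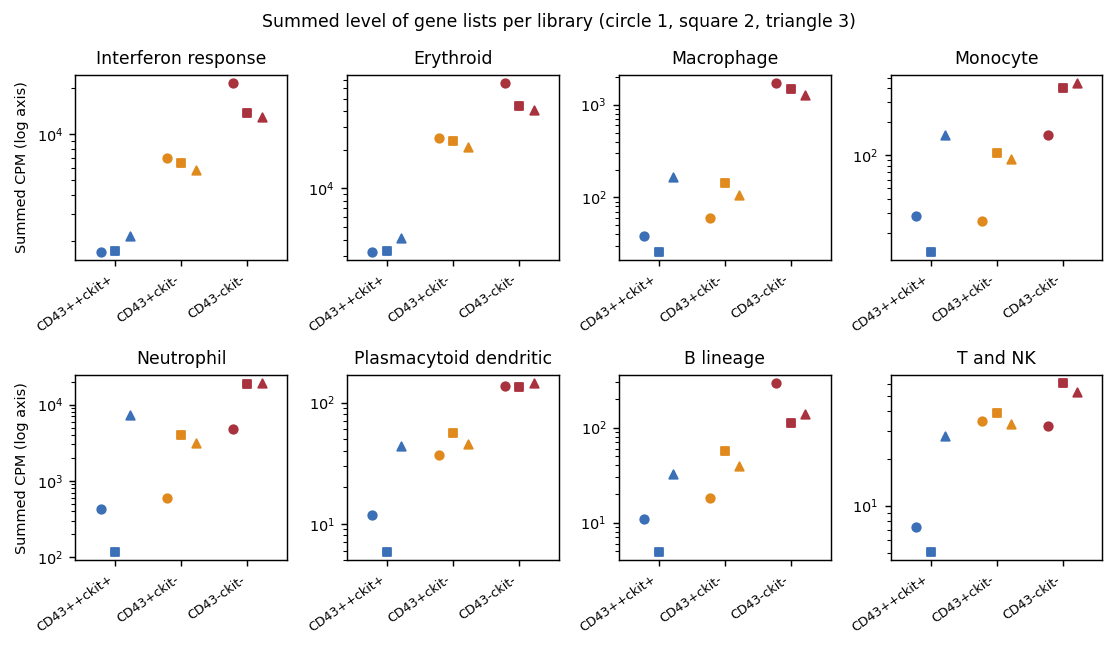
Summed CPM per library (log axes) of the 45 interferon response genes and of markers of 7 other cell types. Circles, squares and triangles are libraries 1, 2 and 3. The interferon response and erythroid sums are ordered CD43++ckit+, CD43+ckit-, CD43-ckit- without overlap. The neutrophil sums of CD43++ckit+ overlap those of both other populations, while those of CD43+ckit- all lie below those of CD43-ckit-.

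Neutrophil markers split the libraries within populations. Their 16 rows summed to 117.5 to 7197 CPM in CD43++ckit+ cells, with library 3 the highest, to 599.96 to 3995 in CD43+ckit- cells and to 4839 to 19027 in CD43-ckit- cells, with library 1 the lowest of both. Library 3 of CD43++ckit+ cells exceeded the mean of the other 2 for 31 of 45 interferon response genes, with a median ratio of 1.24 and 12 ratios above 2. Library 1 of CD43-ckit- cells exceeded its fellows for 41 of 45, with a median ratio of 1.63. That library had the lowest TMM factor, 0.589 against 0.735 and 0.776 for libraries 2 and 3 of that population. Without scaling, the 45 genes took 1.27% of its counts, against 1.01% and 1.00%. In CD43+ckit- library 1 exceeded its fellows for 32 of 45, with a median ratio of 1.10. The shares of all genes for these counts were not computed. Zbp1 and Cmpk2 were, as the neutrophil sum was, highest in library 3 of CD43++ckit+ cells and lowest in library 1 of each other population. In an alternative, library 3 of CD43++ckit+ cells and library 1 of each other population were left out together. Members lower in CD43++ckit+ cells then numbered 42 against CD43+ckit- cells and 43 against CD43-ckit- cells. Between CD43+ckit- and CD43-ckit- cells 24 were lower in CD43+ckit- cells. Of 12655 genes tested then, 4181 were lower in the first of these comparisons and 4154 in the last. With all libraries these were 2533 and 2630 of 12573, so calls rose over all genes too. The shares of all genes under this alternative were not computed, and no count over all genes is given here for the comparison with 43 members. The libraries left out were the least correlated of their populations, a choice made after seeing the data. The neutrophil difference remained, at 117.5 and 429.5 CPM in the CD43++ckit+ libraries kept and 18332 and 19027 in those of CD43-ckit- cells. The part of neutrophil RNA in single genes was not tested.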

How the data were processed

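Libraries had been prepared from total RNA of the sorted cells with Illumina's TruSeq RNA kit, per the labels' protocols. The deposited values are whole-number read counts by gene symbol, in 9 columns. Per the submitters' processing notes, the tools were CASAVA 1.8, TopHat2 2.0.4, RSEM, HTSeq and edgeR, with no role stated. Those notes name a human build while the symbols are mouse. The counts' own build, annotation and strand handling are therefore "not given in the sources used here", and counts of overlapping, antisense or copied genes are uncertain. Totals of 17966197 to 31781746 counts set the counting precision.

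Tests on counts used edgeR 4.0.16 (R 4.3.3): filterByExpr (minimum count 10, minimum total count 15), TMM, a model of 3 population means over all 9 libraries, robust glmQLFit, glmQLFTest and Benjamini-Hochberg adjustment over the 12573 genes tested, with calls at an adjusted p under 0.05. A negative log2 difference means that the population named first was lower. Its SE is the size divided by the square root of F. The fit was also run on simulated counts with 1 fixed spread, which does not show how it behaves at the spread of these data. DESeq2 1.42.0, other scalings and filters, replicate blocks and leaving out libraries were the alternatives. Exon lengths, shared exon words and promoters came from reference annotations of the mouse, not from the counts' own build.

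The members and all gene lists were chosen with earlier results of these data known. Values per library are given for the 2 most abundant members of each of 11 roles and for every member not called lower in CD43++ckit+ cells than in CD43-ckit- cells. Values of Zbp1 and Rsad2, and those of single non-members, were added after they were seen. From each list of other pathway genes the text names the 3 with the smallest joint p and those called against the direction of most of the list. Older symbols were used for Mb21d1 and Tmem173. Ahsp, Epb42 and Trac had no row. Some genes of these lists were counted but are not reported here by name.

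Labels number the replicates alike in each population. Deviations of same-numbered libraries from their population means correlated at 0.303 to 0.525 between CD43+ckit- and CD43-ckit- cells, so the numbers were taken to pair these. The labels do not say what a number marks, and libraries 2 and 3 of these populations correlated as well with the differently numbered one (0.343 and 0.349). The correlations were -0.617 to 0.447 between CD43++ckit+ and CD43+ckit- cells and -0.318 to 0.262 between CD43++ckit+ and CD43-ckit- cells, where they were not.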

Additional observations from a re-analysis of the deposited data

How the results depend on the processing

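The calls of 29 of 36 members between CD43++ckit+ and CD43+ckit- cells, 28 of 41 between CD43++ckit+ and CD43-ckit- cells and 6 of 17 between CD43+ckit- and CD43-ckit- cells passed in every alternative run. Leaving out 1 library gave 29 to 37, 38 to 42 and 12 to 22 members called lower, and members' medians of -1.56 to -1.15, -2.19 to -1.83 and -0.75 to -0.27. Over all genes, calls of lower then numbered 1886 to 2984, 2911 to 4293 and 1889 to 3587, in the same order of comparisons. With all libraries these counts were 2533, 3482 and 2630. With 1 library left out, members called higher between CD43+ckit- and CD43-ckit- cells numbered 0 to 2. Genes of the whole table called higher in CD43++ckit+ cells than in CD43+ckit- cells then numbered 1607 to 2935, against 2472 with all libraries, the lowest without library 1 of CD43++ckit+ cells. Ifi44, Mx1, Mx2, Ifit3 and Zbp1 had the fewest counts of the 45 genes, 34 to 541 over the 9 libraries. The cause of the lost calls was not tested.

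With library totals, between CD43++ckit+ and CD43-ckit- cells 1 member was called higher, the members' median was -1.20, and 1669 genes were lower and 7722 higher, against 3482 and 4989. Between CD43+ckit- and CD43-ckit- cells 6 members were lower and 8 higher, the median was 0.12, and 1191 genes were lower and 6865 higher, against 2630 and 3893. The replicate block in a fit of the CD43+ckit- and CD43-ckit- libraries, taken as paired by number, gave 29 members lower, 1 higher and 3949 genes lower. The fit of these 2 populations without the block and the fit with no filter on low counts gave 1 member higher each. With the least correlated library of each population left out, an alternative chosen after seeing the data, 3 members were higher in CD43+ckit- cells than in CD43-ckit- cells and 4154 genes lower. In the comparison of CD43++ckit+ cells with CD43+ckit- cells that alternative gave 4181 genes lower and 4376 higher. The numbers were not taken to pair the other populations, where the block in a fit of 2 populations changed the counts of members by less than 1.5 times.

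Log2 differences of single members turned sign as follows. Between CD43++ckit+ and CD43-ckit- cells with library totals they were 0.28 for Oasl1, 0.66 for Eif2ak2, 0.044 for Bst2 and 0.23 for Samd9l, and Eif2ak2 had 0.0056 with the least correlated libraries left out. Between CD43++ckit+ and CD43+ckit- cells Samd9l had 0.20 with those libraries left out and -0.77 to 0.050 with 1 library left out. Between CD43+ckit- and CD43-ckit- library totals gave Ddx58 0.26, Ifih1 0.66, Oas1a 0.088, Oas2 0.15, Oas3 0.074, Ifit2 0.47, Trim25 0.30, Mx2 0.38, Bst2 0.31, Samd9l 0.51, Trim30a 0.44, Gbp2 0.20, Gbp3 0.32, Igtp 0.026, Parp12 0.49, Dtx3l 0.15, Ifi35 0.27, Rtp4 0.019 and Xaf1 0.44. DESeq2's size factors in edgeR gave Stat2 -0.031, Adar -0.15, Herc6 -0.14 and Parp9 -0.11, and DESeq2's own test gave Stat2 -0.0060, Adar -0.12, Herc6 -0.12 and Parp9 -0.084. Adar and Herc6 had -0.033 and -0.036 with upper quartile factors, -0.018 and -0.0096 with a filter at 1 CPM in 3 libraries, and -0.013 and -0.017 in the fit of these 2 populations. Ifih1 had 0.083 with no filter, and Mx2 and Parp12 had 0.11 and 0.16 with the least correlated libraries left out. With 1 library left out the ranges were -0.65 to 0.0011 for Ddx58, -0.40 to 0.32 for Ifih1, -0.80 to 0.0063 for Oas2, -0.10 to 0.33 for Adar, -0.44 to 0.053 for Ifit2 and -0.39 to 0.62 for Herc6. They were -0.52 to 0.15 for Mx2, -0.73 to 0.070 for Samd9l, -0.45 to 0.072 for Trim30a, -0.066 to 0.41 for Parp9, -0.33 to 0.13 for Parp12 and -0.40 to 0.11 for Xaf1. With the longer ISRE core, which adds an A to the core searched, 16 of 35 member genes (45.7%) held a match, against 3.94% of other genes.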
